A study of Mus musculus with 8 samples.

Results

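The transcripts of 9 genes were followed in immortalized mouse embryonic fibroblasts (MEFs) with and without SLMAP3. The genes were chosen by name and comprise the GCKIII kinases Stk24, Stk25 and Stk26, the cerebral cavernous malformation (CCM) genes Pdcd10, Ccm2 and Krit1, and the kinases Map4k4, Mink1 and Tnik. All 9 were among the 55401 genes listed and among the 15461 that passed the filter on low counts and were tested. The data are RNA-seq counts from 4 SLMAP3-/- and 4 WT lines, each a single library of cells isolated from an E14.5 embryo of the B6C3F1 strain after the head and organs had been taken off. All lines of both genotypes were immortalized with the SV40 large T antigen, and the knockout was global, from deletion of a floxed Slmap exon by CMV-driven Cre. Immortalization limits both groups as a model of the primary fibroblast, and the study describes a loss of the shorter SLMAP isoform when MEFs are immortalized.

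As background, STRIPAK is a complex that holds a phosphatase and kinases together on a striatin scaffold, and SLMAP is one of its adaptors. PDCD10, also called CCM3, is a small scaffold that binds the GCKIII kinases and joins them to striatin, while the CCM2 scaffold joins PDCD10 to KRIT1, which binds the receptor HEG1 and the GTPase RAP1. Loss of any of the 3 CCM genes in endothelial cells is known to cause vascular malformations. The kinases MAP4K4, MINK1 and TNIK act on cytoskeletal, JNK and Hippo signalling, and MAP4K4 is itself found with STRIPAK.

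The targeted gene was checked first. Slmap was at 44.3, 32.7, 36.3 and 39.7 CPM (counts scaled to the total of each line, with TMM normalization) in the 4 SLMAP3-/- lines and at 124, 139, 143 and 141 CPM in the 4 WT lines. The knockout lines thus held 28.0% of the WT level, with no overlap, a log2 fold change of -1.84 (SE 0.11) and an adjusted p of 0.00119 in edgeR's quasi-likelihood test. Total estimated counts ran from 49878808 to 63322675 per line, and the leading principal component, with 27.0% of the variance, did not separate the genotypes. The 10 fibroblast markers, among them Col1a1 and Vim, summed to between 11035 and 13028 CPM in SLMAP3-/- and between 12050 and 15291 CPM in WT lines. These sums were largely Col1a1, Col1a2 and Vim. The most uneven markers of the list were Dcn (0.323 to 14.8 CPM over all lines), Pdgfra (17.4 to 179 CPM) and Thy1 (26.2 to 204 CPM). Of 9 endothelial markers, 6 were under 1 CPM in every line, Pecam1 and Cdh5 included, and the list summed to between 24.6 and 49.0 CPM in SLMAP3-/- and between 18.4 and 49.8 CPM in WT lines. The other 3 were expressed, with log2 fold changes of 1.41 for Tek (unadjusted p = 0.0320 in edgeR), -0.89 for Flt1 (unadjusted p = 0.0439 in edgeR) and 0.35 for Kdr (unadjusted p = 0.417 in edgeR), each with an adjusted p of 1.00. Among the fibroblast markers Col1a1 had a log2 fold change of -0.30 (unadjusted p = 0.0458, adjusted p = 1.00 in edgeR). Epithelial markers summed to at most 5.98 CPM, leukocyte markers to at most 5.78 CPM and muscle markers to at most 0.510 CPM in any line, and neural markers, largely Map2, to between 84.7 and 275 CPM. Y-linked genes were expressed in SLMAP3-/- line 2 and WT line 3 and in no other line.

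The 9 genes come from families of related sequence, so the coding regions were compared to see whether reads could be told apart. No stretch of 31 bases was shared within either kinase family. Stk24 and Stk25 were alike over at most 17 coding bases, Stk24 and Stk26 over 14, Stk25 and Stk26 over 14, Map4k4 and Mink1 over 20, Map4k4 and Tnik over 23, and Mink1 and Tnik over 20. The longest run of each family is shown, and each is shorter than the 31 bases compared above. Capitals mark the shared run and coordinates are in GRCm38.
Stk24, chr14:121302277-121302329, minus strand, exon 5: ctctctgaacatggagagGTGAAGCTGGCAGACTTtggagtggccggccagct
Stk25, chr1:93626142-93626194, minus strand, exon 6: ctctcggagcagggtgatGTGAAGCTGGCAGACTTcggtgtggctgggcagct
Map4k4, chr1:39962216-39973966, plus strand, across exons 3 and 4: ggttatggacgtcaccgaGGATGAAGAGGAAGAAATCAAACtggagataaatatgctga
Tnik, chr3:28494005-28505792, plus strand, across exons 3 and 4: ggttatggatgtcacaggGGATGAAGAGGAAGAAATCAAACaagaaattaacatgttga
Stk26, the GCKIII kinase with the fewest counts, is shown against Stk24 in the same way.
Stk24, chr14:121337468-121337517, minus strand, exon 2: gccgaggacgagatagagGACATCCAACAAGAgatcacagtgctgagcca
Stk26, chrX:50870391-50870440, plus strand, exon 3: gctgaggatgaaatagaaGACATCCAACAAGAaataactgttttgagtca
Pdcd10 was the member with the most sequence in common with another gene. It shared 485 of its 2964 stretches of 31 bases, or 16.4%, with the pseudogene Gm14253, which was listed with 2 to 8 counts per line. The share was 2.18% for Krit1 and below that for the other 7 genes.

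None of the 9 genes passed the test between genotypes. In bulk RNA, fewer cells with a transcript and less of it per cell cannot be told apart. The adjusted p was 1.00 for each in edgeR's quasi-likelihood test, where 0.00647% of all tested genes passed. At an unadjusted p under 0.05 the count was 0 of 9 by edgeR, against 1.81% of all tested genes (0.964% higher and 0.847% lower). By DESeq2 it was 1 of 9, Tnik, against 1.63% of the genes tested there. In no member did the genotypes fail to overlap, against 1.25% of all tested genes, 0.724% higher and 0.53% lower. The members' fold changes were positive for 4 and negative for 5, with a median log2 fold change of -0.03 beside -0.0014 over all tested genes. With 4 lines against 4, the smallest p that the two-sided exact permutation test can give is 0.0286, and the lowest among the members was 0.143.

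**Figure D1:**
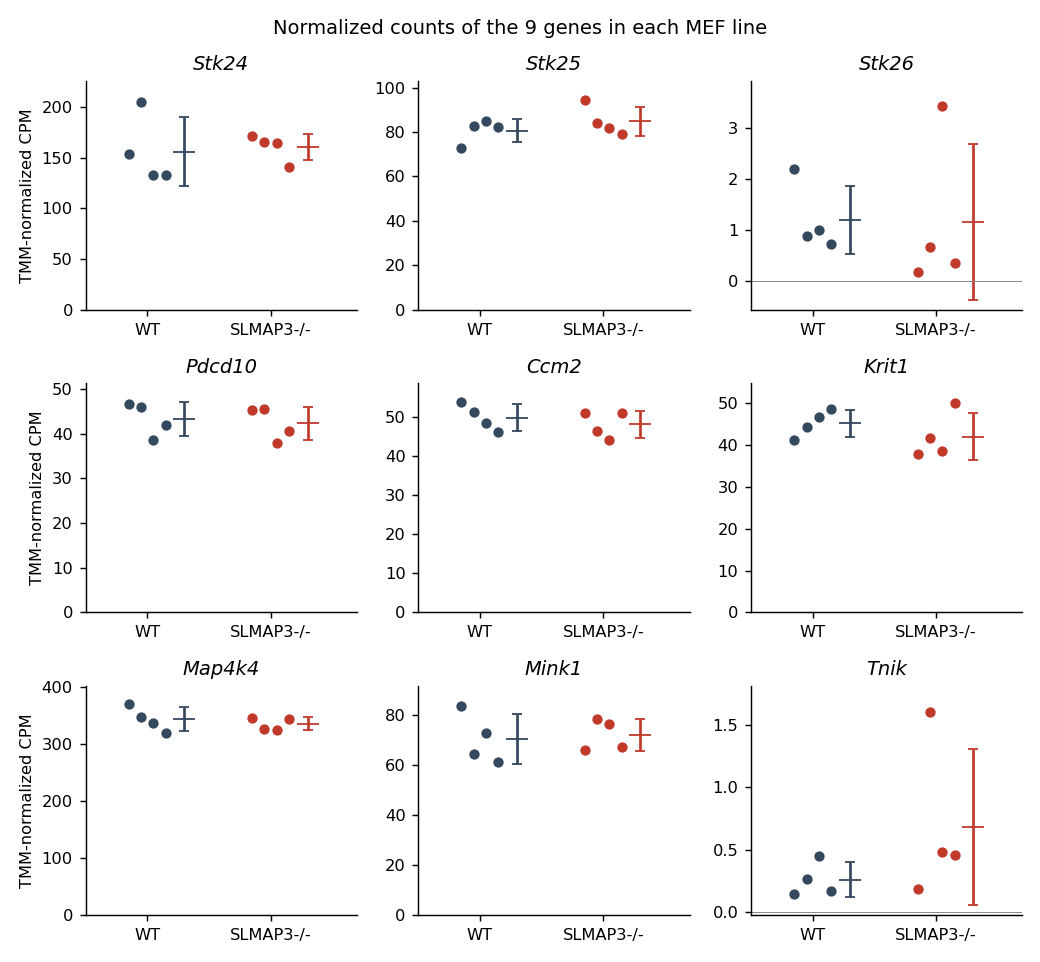
TMM-normalized CPM of each of the 9 genes in the 4 WT and 4 SLMAP3-/- lines, with 1 point per line and the mean and SD beside them, on linear axes of different height. In each panel the points of the genotypes overlap, and single lines stand high for Stk26 (3.44 CPM) and Tnik (1.60 CPM) in SLMAP3-/- cells.

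Among the GCKIII kinases, Stk24 (MST3) lies on chromosome 14 (chr14:121286343-121380011, minus strand), as Slmap does, 94.8 Mb away. It was at 171, 165, 165 and 141 CPM in the SLMAP3-/- lines and at 153, 205, 133 and 133 CPM in the WT lines. The highest value and the 2 lowest were all WT, so the knockout lines lay inside the WT range. Means were 160 ± 13.2 CPM (SD, n = 4) without SLMAP3 and 156 ± 33.9 CPM (SD, n = 4) with it. The log2 fold change was 0.04 with a 95% interval from -0.30 to 0.38, which bounds the ratio between 0.812 and 1.31.

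Stk25 (YSK1), a Golgi-associated kinase of the same family on chromosome 1 (chr1:93619751-93658659, minus strand), was steadier. Its values were 94.2, 84.1, 81.8 and 79.0 CPM in SLMAP3-/- and 73.0, 82.5, 84.9 and 82.1 CPM in WT lines. The extremes were SLMAP3-/- line 1 and WT line 1, and the other 6 lines lay between 79.0 and 84.9 CPM. This gave a log2 fold change of 0.07 (95% interval -0.12 to 0.27). Exons of Stk25 overlap those of Farp2 and of the antisense gene Gm28536, both on the opposite strand. Farp2 was at 59.3 ± 14.9 CPM in SLMAP3-/- and 52.2 ± 6.81 CPM in WT lines (SD, n = 4).

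Stk26 (MST4), the X-linked GCKIII kinase (chrX:50841047-50893097, plus strand), was scarce and uneven. It was at 0.173, 0.660, 3.44 and 0.364 CPM in SLMAP3-/- lines and at 2.19, 0.890, 1.00 and 0.731 CPM in WT lines, from 10 to 214 counts. The 3 lowest lines were SLMAP3-/- lines, but so was the highest, and the highest line stood 19.9-fold above the lowest. The log2 fold change was -0.05 with an interval from -2.01 to 1.91, so ratios between 0.248 and 3.75 lie inside the interval. With limma-voom on the same lines it was -0.79 (SE 0.82, unadjusted p = 0.360). Without SLMAP3-/- line 3 the log2 fold change was -1.60 (SE 0.59, unadjusted p = 0.0289 and adjusted p = 1.00 in edgeR), and it turned positive without SLMAP3-/- line 1, 2 or 4 or WT line 1, at 0.31, 0.14, 0.24 and 0.42.

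Of the CCM genes, Pdcd10 (chr3:75516490-75556856, minus strand), the scaffold for the GCKIII kinases, was at 45.1, 45.6, 37.9 and 40.5 CPM in the SLMAP3-/- lines. In the WT lines it was at 46.5, 45.9, 38.5 and 41.9 CPM. The 2 ranges were almost the same, and the log2 fold change of -0.03 had a 95% interval from -0.26 to 0.20. A fall or rise of this transcript beyond a ratio of 0.836 or 1.15 thus lies outside the interval.

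Ccm2, the scaffold between KRIT1 and PDCD10 (chr11:6546887-6596744, plus strand), was at 50.9, 46.4, 44.0 and 51.0 CPM without SLMAP3 and at 53.6, 51.1, 48.2 and 46.0 CPM with it. All but the lowest SLMAP3-/- line lay inside the WT range. Its log2 fold change was -0.05 (95% interval -0.25 to 0.15). Krit1 (chr5:3803184-3845564, plus strand), whose product anchors the complex at cell junctions, was at 37.9, 41.8, 38.5 and 50.0 CPM in SLMAP3-/- and at 41.3, 44.3, 46.7 and 48.7 CPM in WT lines. The 2 lowest lines and the highest were SLMAP3-/- lines. The log2 fold change of -0.11 (95% interval -0.36 to 0.15) was the most negative of the 9 genes, and without SLMAP3-/- line 4 it was -0.20 (unadjusted p = 0.0610 in edgeR).

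Krit1 and Pdcd10 both start back to back with a protein-coding neighbour on the other strand, Krit1 259 bases from Ankib1 and Pdcd10 691 bases from Serpini1. Ccm2 starts in the same way 652 bases from a snoRNA gene, Gm24000, and is not shown. The 150 bases before the starts of Krit1 and Pdcd10 are shown for that arrangement, with CpG dinucleotides in capitals. They are taken from RefSeq (GRCm38.p6, the first of 2 entries for Krit1), where 6 of the 9 genes had an entry.
Krit1, chr5:3803031-3803180, plus strand: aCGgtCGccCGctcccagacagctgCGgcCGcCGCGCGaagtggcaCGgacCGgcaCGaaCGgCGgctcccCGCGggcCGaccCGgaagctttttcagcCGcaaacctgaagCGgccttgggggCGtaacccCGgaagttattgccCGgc
Pdcd10, chr3:75556853-75557002, minus strand: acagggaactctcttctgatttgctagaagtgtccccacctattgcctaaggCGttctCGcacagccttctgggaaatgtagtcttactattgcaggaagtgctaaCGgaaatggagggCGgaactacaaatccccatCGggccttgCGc
The Krit1 window holds 22 CpG and the Pdcd10 window 6. Over the 250 bases before the start Krit1 had 37 CpG and Pdcd10 had 11, against a median of 6 in 32851 RefSeq promoters of that length. The motif CCGGAAG, searched on both strands, was in the Krit1 promoter 2 times and in 6.91% of all promoters. It was not found in the Pdcd10 promoter. The other Krit1 entry held it 1 time, as did the first Ccm2 entry. Of the other motifs searched, CCAAT and GGGCGG were in the Pdcd10 promoter 1 and 2 times and in neither Krit1 entry. They were in 33.8% and 32.7% of all promoters. TATAAA and CACGTG were found for neither gene. Ankib1 was at 79.1 ± 8.97 CPM in SLMAP3-/- and 86.5 ± 4.75 CPM in WT lines, and Serpini1 at 3.16 ± 0.523 and 4.05 ± 1.62 CPM (SD, n = 4), and neither passed the test (adjusted p = 1.00 in edgeR). Over the 8 lines Krit1 and Ankib1 had r = 0.60 (exact permutation p = 0.111; rho = 0.55, exact permutation p = 0.171; r = 0.44 without 2 lines), and Pdcd10 and Serpini1 had r = -0.53 (exact permutation p = 0.186; rho = -0.52, exact permutation p = 0.197; r = -0.18 without 2 lines). Both pairs had an adjusted p of 0.186 for r and 0.197 for rho.

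Of the 3 MAP4K kinases, Map4k4 (chr1:39900913-40026310, plus strand), a kinase of cell migration and adhesion turnover, was at 347, 327, 326 and 345 CPM in SLMAP3-/- and at 370, 348, 338 and 320 CPM in WT lines, and the knockout range lay inside the WT range. Its log2 fold change was -0.03 (95% interval -0.22 to 0.15). Map4k4 was also the steadiest member, with a highest line 1.16-fold above the lowest, and its spread within genotypes fell at percentile 1.91 of all tested genes. Its level was at percentile 97.1 of these genes, and its spread was not compared with that of genes of like level.

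Mink1 (chr11:70562881-70614483, plus strand), the close relative of Map4k4, was at 66.0, 78.5, 76.1 and 67.3 CPM in SLMAP3-/- and at 83.6, 64.1, 72.6 and 61.2 CPM in WT lines. Again the knockout lines lay within the WT range, and the log2 fold change was 0.03 (95% interval -0.23 to 0.30). An antisense gene, Gm12316, overlaps Mink1 exons. For it, and for Farp2 and Gm28536 at Stk25, whether the counting used strand is not given in the sources used here.

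Tnik (chr3:28263214-28675858, plus strand), a kinase known for its part in Wnt target transcription, was scarce in every line. Its values were 0.190, 1.60, 0.482 and 0.460 CPM in SLMAP3-/- lines and 0.145, 0.271, 0.454 and 0.170 CPM in WT lines, from 9 to 80 counts. Of the SLMAP3-/- lines, 3 lay above every WT line and line 1 lay among them. The lowest of those 3, line 4, had 24 counts, as did the highest WT line, line 3, so their order rests on the scaling. The means were 0.683 ± 0.626 and 0.260 ± 0.140 CPM (SD, n = 4), and the log2 fold change of 1.39 (SE 0.67) had a 95% interval from -0.15 to 2.93. Its unadjusted p was 0.0712 in edgeR's quasi-likelihood test and 0.0441 in DESeq2, with an adjusted p of 1.00 in both. Without SLMAP3-/- line 2 the log2 fold change was 0.54, with an unadjusted p of 0.341 in edgeR. In each genotype the line with the highest Tnik was the line that expressed Y-linked genes, and with that expression as a covariate the log2 fold change was 1.17 (unadjusted p = 0.0274, adjusted p = 1.00 in edgeR).

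**Figure D2:**
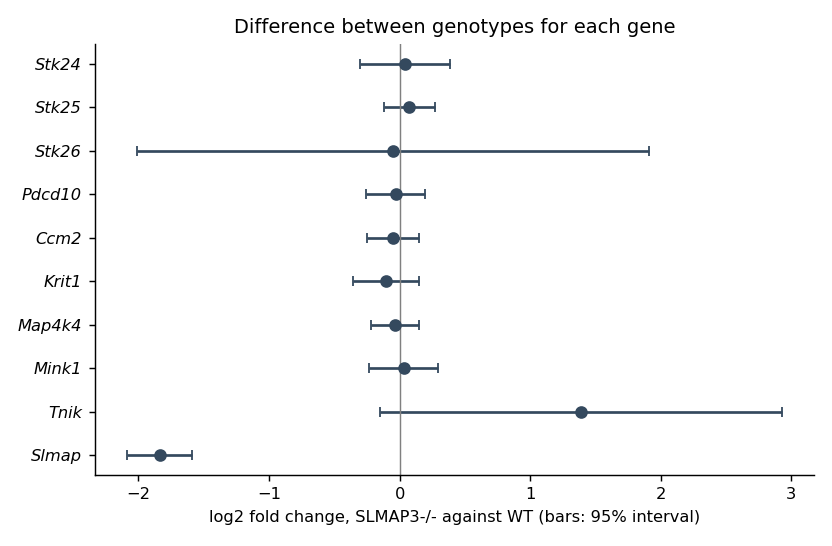
Log2 fold change of SLMAP3-/- against WT for the 9 genes and Slmap, with 95% intervals from edgeR. The intervals of the 9 genes include 0, the widest being those of Stk26 (-2.01 to 1.91) and Tnik (-0.15 to 2.93), and that of Slmap does not.

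The 9 genes fell into a steady group and an uneven pair. The 7 genes other than Stk26 and Tnik had at least 2035 counts in every line, log2 fold changes from -0.11 to 0.07, and intervals that reached no further than -0.36 and 0.38. Within a genotype their coefficients of variation ran from 3.33% to 21.8%, the latter in WT for Stk24. The SD of log2 CPM within genotypes was 0.071 to 0.23 in these 7 genes, below the median of 0.28 over all tested genes, and it was 1.3 for Stk26 (percentile 95.4) and 0.95 for Tnik (percentile 89.7). The plot of spread against level shows that many other tested genes of such low level had a spread as wide. The 7 steady genes were at percentile 66.0 or higher in level, and their spread was not compared with that of genes of like level.

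**Figure D3:**
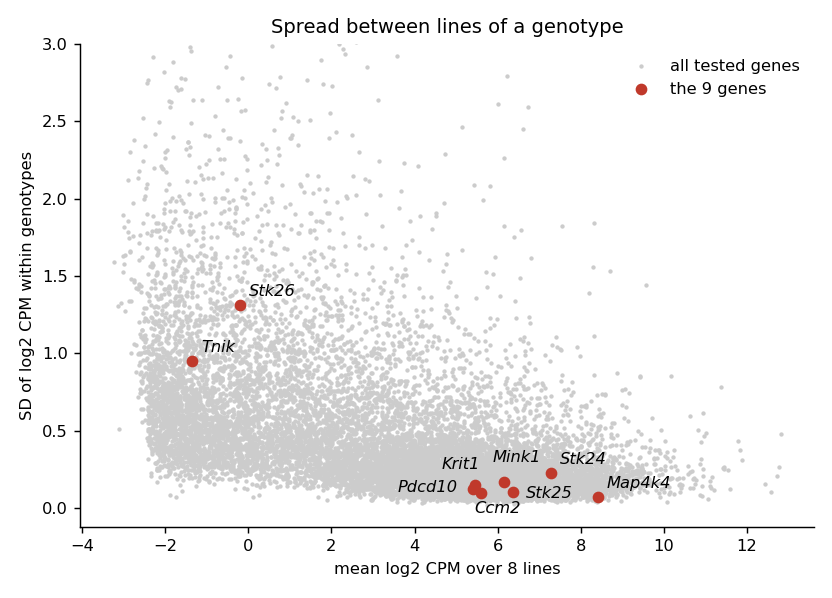
SD of log2 CPM within genotypes (vertical) against mean log2 CPM over the 8 lines (horizontal), with all tested genes in grey and the 9 genes in red. 47 genes with an SD above 3 lie outside the axis, and Stk26 and Tnik stand to the upper left of the other 7 genes.

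Levels of different genes were compared as CPM per kb. With the median annotated protein-coding transcript as the length, the order was Stk25 (96.8 CPM per kb), Map4k4 (90.4), Stk24 (59.1), Pdcd10 (47.1), Ccm2 (31.5), Krit1 (16.6), Mink1 (15.4), Stk26 (0.347) and Tnik (0.119). Stk25 and Map4k4, Stk24 and Pdcd10, Krit1 and Mink1, and Stk26 and Tnik overlapped between lines in this order. The place of Stk25 rests on a median of 854 bases, set by short annotated transcripts. With the longest protein-coding transcript, Stk24 (59.1) was above Stk25 (19.5) and level with Map4k4 (58.8), and with the union of exons Map4k4 (35.5) led, followed by Stk24 (29.5). Under all 3 lengths Stk26 and Tnik were the lowest, Map4k4 was among the 2 highest, and Krit1 was the lowest of the CCM genes.

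**Figure D4:**
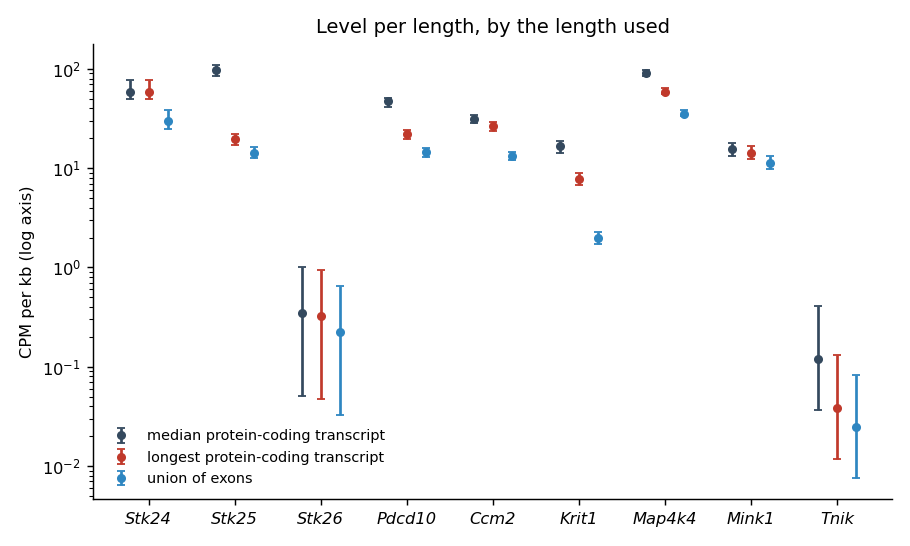
Mean CPM per kb of the 9 genes over 8 lines on a log axis, by the length used, with bars from the lowest to the highest line. Stk25 moves from 96.8 to 14.2 between lengths, while Stk26 and Tnik stay below every other gene.

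Genes whose proteins bind each other, or that are close paralogs, were compared for joint variation of log2 CPM over the 8 lines, in 8 pairs. The pairs among Map4k4, Mink1 and Tnik were chosen as paralogs. The largest correlation among the CCM and GCKIII genes was that of Ccm2 with Pdcd10 (Pearson r = 0.58, exact permutation p = 0.126, adjusted p = 0.618; Spearman rho = 0.69, exact permutation p = 0.0694). It fell to r = 0.13 without the 2 lines farthest from the median. Pdcd10 with Stk24 gave r = 0.53 (exact permutation p = 0.155, adjusted p = 0.618; rho = 0.50, exact permutation p = 0.216) and r = 0.69 without 2 lines. Pdcd10 with Stk25 and with Stk26 gave r = -0.03 and -0.29, and Krit1 with Ccm2 gave r = 0.07. Without 2 lines these were 0.05, 0.39 and 0.09. Map4k4 with Mink1 gave r = 0.32, which became -0.97 without 2 lines. Map4k4 with Tnik and Mink1 with Tnik gave -0.45 and 0.35, and -0.75 and 0.82 without 2 lines. The lines left out were those farthest from the median of the gene named first, and no p was computed for these values. None of the 8 pairs had an adjusted permutation p under 0.05, the lowest being 0.618 for r and 0.555 for rho.

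Over the 8 lines the genes most alike in log2 CPM to Pdcd10 were Eif1a (r = 0.981) and Ube2d2a (0.968). For Krit1 they were Atxn7l3 (0.954) and Tob2 (0.947), and for Map4k4 Tipin (0.963) and Gm15773 (0.958). These were the top 2 of 15460 genes in each case, and the likeness is given as a description. How high the top r among so many genes would be without any link was not tested. Gm15773 was scarce, at 0.723 to 1.04 CPM in SLMAP3-/- and 0.663 to 1.24 CPM in WT lines.

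The partners of the GCKIII kinases were followed as a list of 8 genes, with the activating MO25 proteins (Cab39, Cab39l), the Golgi anchor Golga2, the substrates Ezr, Rdx and Msn, and the kinases Stk38 and Stk38l. None passed the adjusted test, and at an unadjusted p under 0.05 no gene was higher and 1, Cab39l, was lower, where 0.847% of all tested genes were lower. Cab39l was at 47.1, 43.6, 45.1 and 47.0 CPM in SLMAP3-/- and at 50.2, 48.5, 53.7 and 64.6 CPM in WT lines. Its genotypes did not overlap, in a transcriptome where 0.53% of genes were lower in this way. The log2 fold change was -0.25 (SE 0.10, unadjusted p = 0.0409, adjusted p = 1.00 in edgeR). The other MO25 gene, Cab39, was at 122 ± 8.66 CPM in SLMAP3-/- and 118 ± 15.4 CPM in WT lines (SD, n = 4). Moesin (Msn), a linker of actin to the membrane and the gene of highest CPM in the list, had a log2 fold change of -0.01 (SE 0.21). The list median was -0.05.

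The signalling around the CCM proteins was followed in 16 genes, from the receptor Heg1 and the RAP1 GTPases to the MEKK3 (Map3k3), MEK5 and ERK5 kinases and their targets. Of these 15 were tested, and none passed the adjusted test or an unadjusted p under 0.05 in edgeR. The median log2 fold change was 0.02. Klf2, a transcription factor that rises in endothelium when CCM genes are lost, was at 17.4, 17.4, 16.4 and 19.2 CPM in SLMAP3-/- lines and at 3.24, 30.6, 18.3 and 28.7 CPM in WT lines. The knockout lines lay close together inside a wide WT range. Klf4, its relative, had a log2 fold change of -0.53 (SE 0.33), and Heg1 one of 0.23 (SE 0.24). The lowest p of the list was that of the kinase Rock1 (log2 fold change -0.16, unadjusted p = 0.0918 in edgeR), and its gene of highest CPM, the matrix protein Thbs1, had a log2 fold change of -0.08 (SE 0.30).

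Other germinal-centre kinases were followed in 14 genes, all tested, with none past the adjusted test or an unadjusted p under 0.05 in edgeR and a median log2 fold change of -0.005. The X-linked Nrk, a further relative of Map4k4 beside Mink1 and Tnik, was the most uneven of them. It was at 18.2, 7.78, 4.32 and 2.01 CPM in SLMAP3-/- and at 0.710, 1.35, 2.02 and 17.6 CPM in WT lines. All SLMAP3-/- lines but the lowest lay above 3 of the WT lines, and WT line 4 was close to the highest knockout line. Its log2 fold change was 0.58 (95% interval -1.82 to 2.97). The lowest p was that of Map4k1 (log2 fold change -0.53, unadjusted p = 0.258 in edgeR), and the highest CPM was that of Slk (log2 fold change 0.03, SE 0.14). Stk3 and Stk4, the Hippo kinases, had log2 fold changes of -0.06 (SE 0.12) and -0.09 (SE 0.12).

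Adaptors and effectors of MAP4K kinases were followed in 13 genes, among them Nck1, the RAP2 GTPases, the LATS and JNK kinases and Tcf7l2. All were tested, none passed the adjusted test or an unadjusted p under 0.05 in edgeR, and the median log2 fold change was -0.02. The lowest p was that of Rap2c (log2 fold change -0.09, unadjusted p = 0.301 in edgeR), and the gene of highest CPM, beta-catenin (Ctnnb1), had a log2 fold change of 0.09 (SE 0.16). Of the 16 STRIPAK genes 14 were tested, and Slmap itself was the one that passed.

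**Figure D5:**
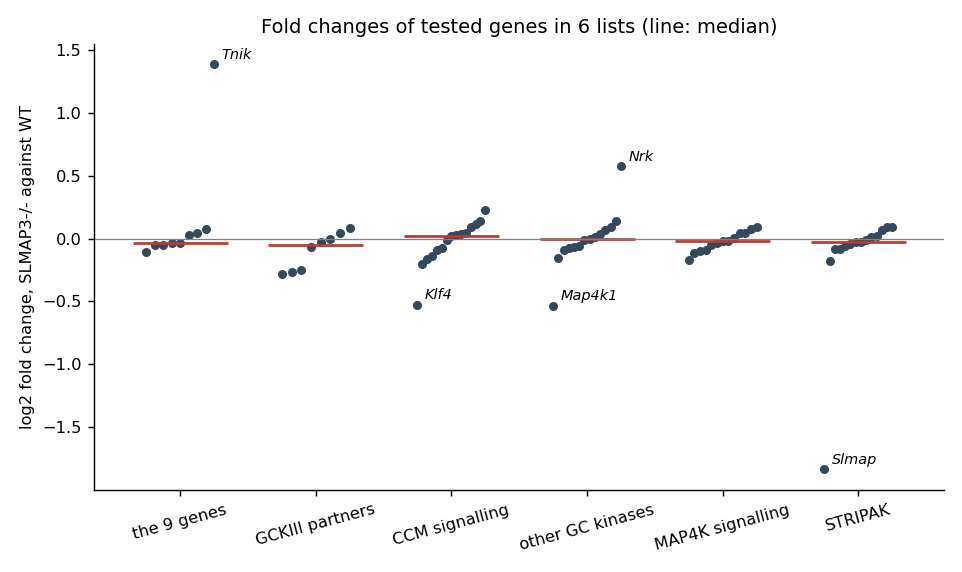
Log2 fold change of SLMAP3-/- against WT for the tested genes of 6 lists, with 1 point per gene and the list median as a line. Medians lie between -0.05 and 0.02, and the named genes beyond 0.45 in size are Tnik, Klf4, Map4k1, Nrk and, in the STRIPAK list, Slmap.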

How the data were processed

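MEFs were sequenced by the authors with an Illumina stranded mRNA kit. The authors quantified transcripts with Salmon against GRCm38 (GENCODE M25) and deposited length-scaled estimated counts per gene; versions are not given in the sources used here. Their table of DESeq2 fold changes and p-values was not used. Estimated counts were rounded, filtered with filterByExpr (minimum count 10) and TMM-normalized, and the 4 SLMAP3-/- lines were compared with the 4 WT lines by edgeR 4.0.16 (R 4.3.3) with Benjamini-Hochberg adjustment over 15461 genes at 0.05. SE was the log2 fold change over the root of F, and intervals were at 95%. log2 CPM had a prior count of 2. Exact permutation tests were two-sided (scipy 1.17.1). The fit was also run on simulated counts with changes of 2-fold or 4-fold, and smaller changes were not simulated. Alternatives were DESeq2 1.42.0, limma-voom 3.58.1, other filters, scaling, covariates, lengths, and leaving out each line. Totals were 49878808 to 63322675 counts per line, with 10 to 214 counts for Stk26 and 9 to 80 for Tnik. Positions are from GENCODE M21 (GRCm38), exons are numbered in its transcript with the longest coding sequence, and promoters are from RefSeq. The members and lists were chosen with earlier results of these data known. Besides the members, Slmap, Nrk, Klf2, Klf4 and Heg1, the rule named in each pathway list the gene of lowest p, the gene of highest CPM and any gene with an unadjusted p under 0.05 or without overlap, and the 2 genes most alike to Pdcd10, Krit1 and Map4k4. Cab39, Stk3, Stk4, the marker genes and the neighbouring genes were named outside that rule, after their values were seen.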

Additional observations from a re-analysis of the deposited data

Results flagged for a closer look

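Of 56 groups of 4 lines examined, 3 held a line far from the others, where about 1 in 20 groups is flagged by chance, or 2.8 of 56. Stk26 was at 3.44 CPM in SLMAP3-/- line 3 against 0.173 to 0.660 CPM in the other SLMAP3-/- lines, a gap of 0.851 of the group's range. Msn was at 1292 CPM in SLMAP3-/- line 2 against 964 to 991 CPM, a gap of 0.919 of the range. Nrk was at 17.6 CPM in WT line 4 against 0.710 to 2.02 CPM, a gap of 0.922 of the range.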

How the results depend on the processing

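The 9 genes gave 143 fold changes over 16 alternatives, of which 131 kept their direction, 12 changed sign, each on leaving out a line, and 0 passed an adjusted p under 0.05. Leaving out each line in turn gave log2 fold changes from -0.0297 to 0.20 for Stk24, -1.60 to 0.42 for Stk26, -0.0834 to 0.0181 for Pdcd10, -0.0661 to 0.00839 for Map4k4, -0.0291 to 0.13 for Mink1 and 0.54 to 1.79 for Tnik, and the count of members with an unadjusted p under 0.05 ran from 0 to 1. That count was 1 (Tnik) with DESeq2, where 1.63% of all tested genes passed, and 1 (Tnik) with Y-linked expression as a covariate, where 1.37% did. It was also Tnik without SLMAP3-/- line 1 (1.76% of all genes) and without WT line 3 (1.68%), and Stk26 without SLMAP3-/- line 3 (2.56%). The cause was not tested. Tnik could not be tested with at least 10 counts in every line. Over all genes edgeR called 1 and DESeq2 11 genes. The replicate numbers come from the sample titles, and same-numbered lines had correlations of -0.16 to 0.19 in their deviations from genotype means. SLMAP3-/- line 3 and WT line 4 carry the same number in their line names (MEF10A and MEF10B). Whether they share a litter is not given, and that pair was not compared. With the replicate number as a block 0 genes were called (294 at an unadjusted p under 0.05 in edgeR). The log2 fold changes were then -0.75 for Stk26 and 1.12 for Tnik. Centred on genotype means, the correlation of Pdcd10 with Stk25 became 0.022 and that of Krit1 with Ccm2 -0.048. Of 18 levels per kb under another length, 12 moved by more than the spread between lines. The widest intervals were those of Stk26 and Tnik, which had few counts (10 to 214 and 9 to 80) and a wide spread between lines (SD of log2 CPM within genotypes 1.3 and 0.95), and the part of depth was not tested.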
